A study of Rattus norvegicus with 3 samples.

Results

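The Hedgehog pathway was followed through 9 genes of the rat retina, Shh, Ptch1, Smo, Gli1, Gli2, Gli3, Hhip, Sufu and Boc, picked by symbol from the 18425 genes of the expression table, and all 9 were found. Retinas of wild-type Sprague Dawley rats were collected at P4 (postnatal day 4) after an injection of 1 µl into the vitreous at P1, which held citrate buffer (pH 4.5), saline or 10 µg streptozotocin (STZ), which joins glucosamine to a nitrosourea and alkylates DNA. The STZ stock was made in citrate buffer, so the buffer library is the vehicle control. Each of the 3 conditions had 1 RNA library, so the spread between animals is unknown, no p-value was computed, and treatment and dissection cannot be told apart in any comparison. The study describes animals that received STZ in the right eye and citrate buffer in the left, but whether the sequenced buffer and STZ retinas shared animals is not stated in the sources used here. How many retinas went into a library is not stated in the sources used here. The libraries held 21992701 reads in buffer, 21977846 in saline and 22031241 in STZ, and the 9 genes together took 0.0438%, 0.0423% and 0.0379% of them.

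Hedgehog signaling begins with a secreted ligand, of which Sonic hedgehog (Shh) is the one best known in the retina, where ganglion cells release it and progenitor cells and astrocytes respond. The ligand binds the receptor Patched (Ptch1), which otherwise holds the membrane protein Smoothened (Smo) inactive. Active Smo acts at the primary cilium to release the Gli transcription factors from Sufu. Gli2 serves mainly as the activator and Gli3 largely as a repressor when ligand is absent, while Gli1, Ptch1 and Hhip are themselves transcribed in response to the signal and are widely used as its readout.

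GLI proteins bind a 9-base motif, GACCACCCA, whose reverse complement reads TGGGTGGTC. The 250 bases before the transcription start of 3 of the genes are shown because they set a readout gene (Ptch1) beside the factors with the lowest ratios in STZ against buffer (Gli2 and Gli3), a choice made with the values known. Sequences are from RefSeq on the rat build GRCr8, 5′ to 3′ on the strand of the gene, with capitals for the 9-base motif or for its core of 7 bases, which lies inside it. The core was searched as ACCACCC on the strand shown, and its reverse complement on that strand was GGGTGGT.
Ptch1, chr17:1555321-1555570, plus strand: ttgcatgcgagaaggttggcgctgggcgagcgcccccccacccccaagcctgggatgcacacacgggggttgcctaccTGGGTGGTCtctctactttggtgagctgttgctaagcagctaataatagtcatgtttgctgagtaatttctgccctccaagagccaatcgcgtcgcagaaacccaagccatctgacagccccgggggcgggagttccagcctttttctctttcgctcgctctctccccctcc
Gli2, chr13:32716419-32716668, minus strand: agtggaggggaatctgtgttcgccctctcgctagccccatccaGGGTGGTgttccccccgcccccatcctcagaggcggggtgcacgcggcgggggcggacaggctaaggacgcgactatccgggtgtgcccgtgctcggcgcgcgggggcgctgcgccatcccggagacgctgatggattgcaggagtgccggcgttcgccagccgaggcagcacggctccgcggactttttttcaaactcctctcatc
Gli3, chr17:54405199-54405448, minus strand: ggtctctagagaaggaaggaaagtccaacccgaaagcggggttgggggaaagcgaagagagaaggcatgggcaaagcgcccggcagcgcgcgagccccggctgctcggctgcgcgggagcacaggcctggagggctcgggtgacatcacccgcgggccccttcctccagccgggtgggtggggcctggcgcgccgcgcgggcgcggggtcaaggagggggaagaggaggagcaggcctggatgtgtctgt
Ptch1 held the 9-base motif, starting 172 bases before the transcription start, and Gli2 held the 7-base core, starting 207 bases before it. Of 33469 RefSeq promoters cut to the same 250 bases, 0.338% held the 9-base motif and 3.81% held the core on either strand. A promoter was matched for 7 of the 9 genes, all but Shh and Gli1, and of the 7 only Ptch1 and Gli2 had a match. A match describes these letters and was not tested for binding.

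Levels of the 9 genes are given as FPKM (fragments per kilobase, scaled to library size), which corrects for gene length and allows genes to be compared. Where 3 values follow a gene without further words, they stand for the buffer, saline and STZ library in this order. The receptor Ptch1 had the highest level of the 9 in every library, at 34.27, 32.89 and 29.35 FPKM. Smo followed with 26.03, 28.2 and 27.93, and Gli1 with 16.12, 17.31 and 17.02. In buffer, Ptch1 lay above 77.7% of the 14885 genes that averaged 10 reads or more. The ligand and the genes Boc and Hhip formed the lower end, with FPKM between 1.0 and 2.55 in all 3 libraries, and in buffer the level of Shh lay above 20.5% of these genes. The order of neighbours was not resolved everywhere, judged by exact Poisson intervals of the reads at the 95% level. In buffer, Sufu and Gli2 overlapped, as did Shh with Boc and Boc with Hhip. In saline, Shh and Boc overlapped, and in STZ so did Hhip and Boc. In STZ, Ptch1 (28.2 to 30.5) and Smo (26.4 to 29.5) overlapped, whereas in both controls Ptch1 was above Smo. All such intervals cover counting error only.

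**Figure D1:**
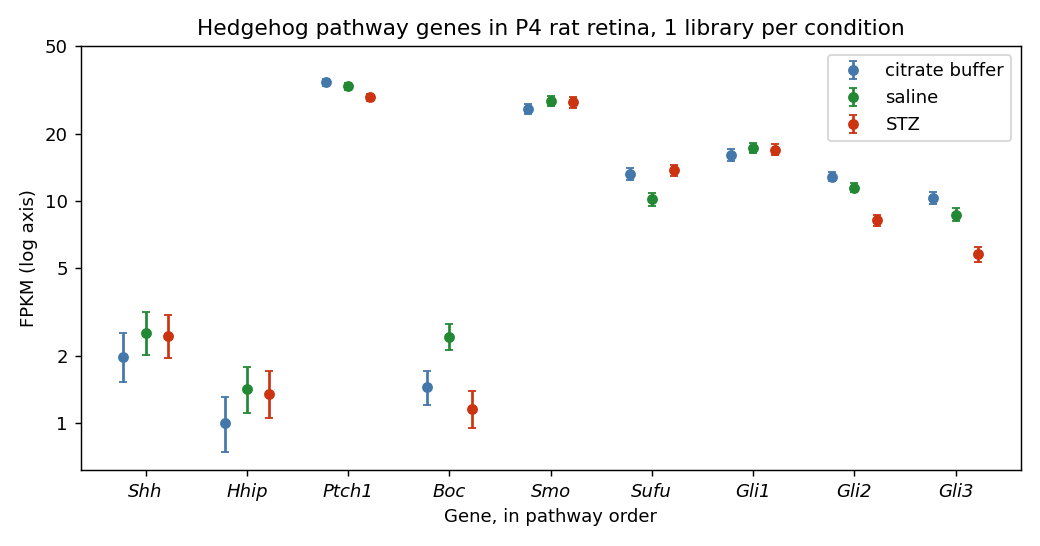
FPKM (log axis) of the 9 Hedgehog pathway genes in the 3 libraries, in pathway order, with exact 95% Poisson intervals of the reads as bars, 1 library per condition. Gli2 and Gli3 are lowest in STZ, at 8.21 and 5.76, while the Gli1 values lie between 16.12 and 17.31.

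To ask whether the pathway differed after STZ, each library pair was compared in 2 ways. The fold was (FPKM + 1)/(FPKM + 1), with thresholds of 1.54 and 0.65 as in the methods of the study, and the added 1 pulls weakly expressed genes toward no change. The read ratio divided the share of all reads that a gene took in the first library by that in the second, and its 95% interval (exact, by the Clopper-Pearson method) is given in brackets. Of the 9 genes, 1 was below 0.65 in STZ against buffer, Gli3, and 0 were above 1.54. Over all 18425 genes, 1.04% were below and 2.25% above. The median log2 fold of the 9 genes was 0.057 in STZ against buffer, beside 0.028 over the 14885 genes, and 4 of the 9 had folds below 1, beside 43.2% of genes. It was -0.036 in STZ against saline, beside 0.013, and 8 of the 9 had folds below 1, beside 47.3%, though 4 of the 8 lay between 0.975 and 0.991. In bulk RNA, fewer cells of a type and less RNA per cell cannot be told apart. By the read ratio, 3 genes were lower than in buffer beyond counting error (Gli2, Gli3 and Ptch1) and 1 was higher (Sufu), where 18.8% of the 14885 genes were lower and 26.2% higher by the same criterion. Against saline, 4 were lower (Gli2, Gli3, Ptch1 and Boc) and 1 was higher (Sufu), beside 23.5% and 26.9%. Both comparisons share the STZ library.

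**Figure D2:**
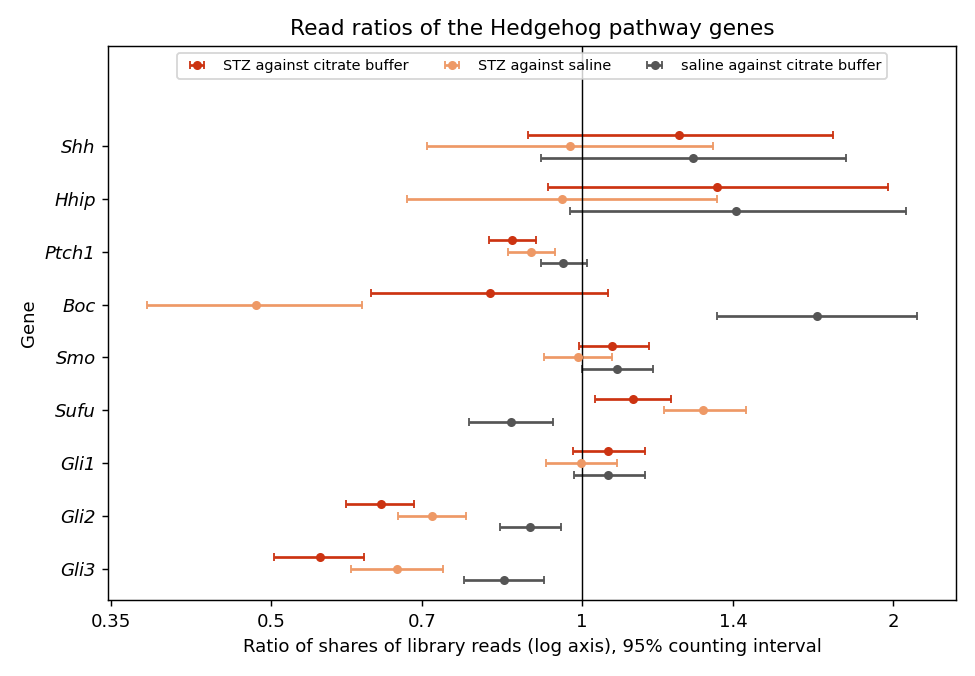
Ratio of each gene's share of the library reads (log axis) for STZ against citrate buffer, STZ against saline and saline against citrate buffer, with exact 95% counting intervals as bars. The Gli2 and Gli3 intervals lie below 1 in all 3 comparisons and are lowest in STZ against buffer, while those of Gli1 include 1.

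The ligand gene Shh (gene ID 29499) had few reads, 65, 83 and 81 in turn. The buffer library was the lowest of the 3, and STZ lay between the controls. The read ratio was 1.24 against buffer (0.886 to 1.75) and 0.974 against saline (0.708 to 1.34), so a difference was not detectable at this depth. Ganglion cell markers were measured beside it, since these cells are a source of the ligand. Their summed FPKM was 484, 444 and 544. The 15 of 16 listed genes that averaged 10 reads or more all had folds above 1 in STZ against both controls. Over the 14885 genes, 43.2% had folds below 1 against buffer and 47.3% against saline. Of the 16, 0 passed 1.54 against buffer and 1, Elavl4, passed it against saline, beside 2.25% and 2.04% of all genes. The part of ganglion cells in the Shh level was not tested.

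Among the readout genes, Gli1 (gene ID 140589) had 1209 reads in buffer, 1285 in saline and 1284 in STZ. Its STZ value was inside the range of the controls, and the read ratio was 1.06 against buffer (0.979 to 1.15) and 0.997 against saline (0.922 to 1.08). Hhip (291936), which encodes a membrane protein that binds and sequesters the ligand, had 51, 72 and 69 reads. Again the STZ value lay between the controls, and the ratio against buffer was 1.35 (0.927 to 1.98). Ptch1 (89830) had 3069, 2942 and 2633 reads. The STZ library was the lowest of the 3, with ratios of 0.856 against buffer (0.813 to 0.902) and 0.893 against saline (0.847 to 0.941), while the controls overlapped within counting error at 0.959 (0.912 to 1.01). Its fold of 0.861 was far from the threshold. Set against Gli1, the reads of Ptch1 in STZ were 0.808 times those in buffer (0.734 to 0.889) and 0.896 times those in saline (0.815 to 0.985). Between the controls this value was 0.902 in saline against buffer (0.821 to 0.991), close to that of STZ against saline and also without 1 in its interval. The interval of Hhip against Gli1 included 1 in all 3 comparisons.

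Smo (25273), the transducer, had 1231, 1332 and 1324 reads, with STZ inside the control range and a ratio of 1.07 against buffer (0.993 to 1.16). Sufu (361769), the inhibitor that binds Gli proteins, had 986, 841 and 1106 reads. Saline was the lowest library and STZ the highest. The read ratio was 1.12 in STZ against buffer (1.03 to 1.22) and 1.31 against saline (1.2 to 1.44). In saline against buffer it was 0.854 (0.778 to 0.937), so the controls also differed beyond counting error. The FPKM of Sufu did not follow its reads, at 13.2, 10.18 and 13.77, and the fold against buffer was 1.04. For the same reads, Sufu was given 0.903 times as much FPKM in saline and 0.932 times as much in STZ as in buffer, relative to the median gene. A shift of over 5% in STZ against buffer was seen in 4.5% of the 11802 genes that averaged 100 reads or more. With the TMM factors or the DESeq2 size factors, the Sufu interval against buffer no longer excluded 1.

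Gli2 and Gli3 were the genes with the lowest ratios in STZ against buffer. Gli3 (140588) had 1090, 916 and 608 reads, or 10.34, 8.7 and 5.76 FPKM. The STZ library was the lowest, and STZ minus the nearer control was -2.94 FPKM, while the controls differed by 1.64. Its fold was 0.596 against buffer, past the threshold of 0.65, and 0.697 against saline, short of it. Its read ratios were 0.557 (0.503 to 0.615) and 0.662 (0.597 to 0.734). Gli2 (304729) had 1796, 1599 and 1147 reads, or 12.88, 11.52 and 8.21 FPKM, and STZ was again the lowest library. Its fold of 0.664 against buffer was the nearest outside the threshold, and with a pseudocount of 0.1, CPM, TPM or either scaling it was between 0.64 and 0.65, so that Gli2 then passed. Its read ratio to buffer was 0.638 (0.591 to 0.687) and to saline 0.716 (0.663 to 0.772). The controls were not equal for these genes either. In saline against buffer, the ratio was 0.841 for Gli3 (0.769 to 0.919) and 0.891 for Gli2 (0.832 to 0.954), both lower in saline beyond counting error. In all, 3 of the 9 were lower between the controls (Gli2, Gli3 and Sufu) and 2 higher (Boc and Smo), where 12.0% of the 14885 genes were lower and 15.9% higher by this criterion. The Smo call, with an interval of 1.0 to 1.17, was lost with TMM scaling, DESeq2 size factors or the 99% level, and with both scalings Ptch1 was also lower in saline.

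The position of STZ relative to both controls was also counted for all 9 genes, a summary chosen after the values were seen. The STZ value lay below both controls by more than the controls differed in 3 genes, Gli2, Gli3 and Ptch1, as it did in 20.9% of the 14885 genes. It lay above both by that much in 0 of the 9, against 29.6%. It was inside the control range in 4 genes, Shh, Smo, Gli1 and Hhip, against 20.7%. Boc and Sufu were outside the range by less than the controls differed.

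Because a ratio of genes in the same library does not depend on how libraries are scaled, the reads of Gli2 and Gli3 were set against those of Gli1. For each read of Gli1 there were 0.902 reads of Gli3 in buffer (0.83 to 0.979), 0.713 in saline (0.654 to 0.776) and 0.474 in STZ (0.429 to 0.522). For Gli2 the values were 1.49, 1.24 and 0.893 (0.824 to 0.968 in STZ). The 3 intervals did not overlap for either gene. The change of the Gli3 to Gli1 ratio between STZ and buffer was 0.525 (exact conditional 95% interval 0.462 to 0.597), and between STZ and saline 0.664 (0.583 to 0.757). Between saline and buffer it was 0.791 (0.702 to 0.891). For Gli2 these changes were 0.601 (0.539 to 0.671), 0.718 (0.643 to 0.801) and 0.838 (0.754 to 0.93). Ptch1 per read of Gli1 stood at 2.54, 2.29 and 2.05. On the FPKM scale, which corrects for length, Gli2 stood at 0.799, 0.666 and 0.482 of Gli1 and Gli3 at 0.641, 0.503 and 0.338, so both were below Gli1 in every library and lowest in STZ. Such ratios show unequal change, and not which of the genes changed.

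**Figure D3:**
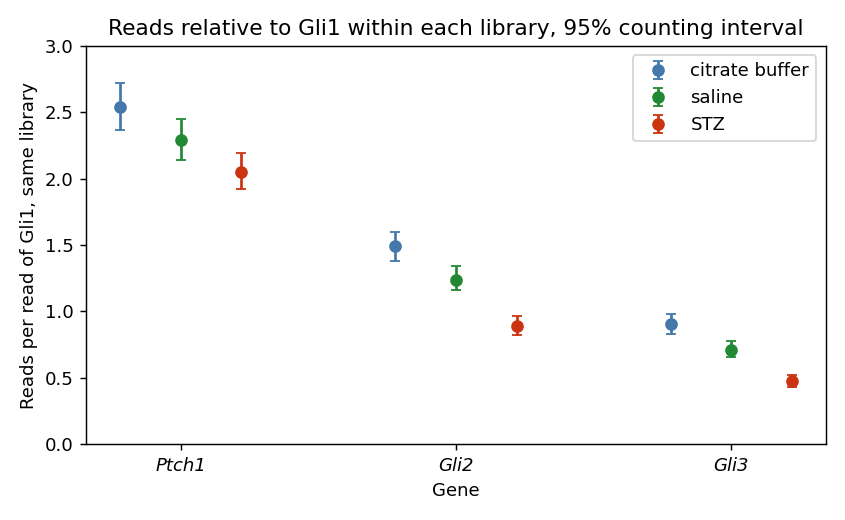
Reads of Ptch1, Gli2 and Gli3 per read of Gli1 in the same library, with exact 95% counting intervals as bars. Each gene is highest in citrate buffer and lowest in STZ, with Gli3 at 0.902, 0.713 and 0.474 in buffer, saline and STZ.

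The co-receptor Boc (360715), which helps the ligand to bind Ptch1, stood apart by its saline value. It had 130 reads in buffer, 219 in saline and 106 in STZ, and saline was high while buffer and STZ were close. The fold in STZ against saline was 0.628, the only one of the 9 past a threshold in that comparison, where 1.75% of all genes were below 0.65 and 2.04% above 1.54. The read ratio was 0.483 against saline (0.379 to 0.612) but 0.814 against buffer (0.624 to 1.06), which includes 1. In saline against buffer it was 1.69 (1.35 to 2.11), while the fold was 1.4, and 0 of the 9 genes passed a threshold between the controls, where 0.429% of all genes were below and 1.0% above. Several markers of the ciliary margin also had saline as the highest library, while Mab21l1 was highest in STZ, with 7333, 7505 and 7912 reads. Summed over the 8 found of 10 listed genes, FPKM stood at 248, 424 and 249, with Aldh1a1 at 1904, 6838 and 1904 reads, and 6 of the 8 were below 0.65 in STZ against saline. Pigment epithelium markers summed to 57.3, 74.2 and 56.6, of which Ttr held 46.17, 38.67 and 44.01 and was lowest in saline. The pigment genes Pmel, Tyr, Tyrp1 and Dct had saline as the highest library, as Boc did, with folds of 2.08 to 3.28 in saline against buffer and 0.292 to 0.584 in STZ against saline. The median log2 fold of the list was 1.108 and -0.94 in these comparisons, and Rpe65 was listed at 0 reads in buffer. Their part in the Boc level was not tested.

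The wider pathway was taken from a list of 32 further genes, of which 31 were found and 30 averaged 10 reads or more. Of the 31, 0 passed a threshold in STZ against buffer and 0 against saline. The median log2 fold was -0.007 against buffer and -0.043 against saline. Of the 30, 15 and 17 were below a fold of 1, beside 43.2% and 47.3% of the 14885 genes. By the read ratio 6 of the 30 were lower and 8 higher than in buffer beyond counting error, near the 18.8% and 26.2% of the 14885 genes. Against saline 7 were lower and 6 higher, where 23.5% and 26.9% of genes were. The co-receptors had folds below 1 in STZ against both controls. Cdon, a relative of Boc, had 4877, 4945 and 3458 reads, with ratios of 0.708 (0.677 to 0.739) and 0.698 (0.668 to 0.729), and the controls lay close together. Gas1, a membrane-anchored co-receptor, had 2098, 2157 and 1723 reads and a ratio of 0.82 against buffer (0.769 to 0.874). Lrp2, a large endocytic receptor that also binds Shh, resembled Boc in its order, with 234, 398 and 195 reads. Its ratio was 0.489 against saline (0.41 to 0.582) and 0.832 against buffer (0.684 to 1.01), and with the pseudocount of 0.1, CPM or TPM its fold against saline passed the lower threshold.

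The other ligands were barely detected. Ihh had 8, 5 and 4 reads and Dhh 18, 14 and 26, against 65, 83 and 81 for Shh. Both intervals against buffer included 1. Genes for ligand lipidation and release were spread around 1. Disp1, which releases the ligand from the producing cell, had 679, 721 and 707 reads and a ratio of 1.04 against buffer (0.934 to 1.16).

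Genes acting on Gli proteins and genes of the cilium also stayed within the thresholds. Kif7, a ciliary kinesin that regulates Gli proteins, had 687, 738 and 683 reads and a ratio of 0.992 (0.891 to 1.1). Spop, an adaptor for the degradation of Gli2 and Gli3, had 2439, 2694 and 2296 reads and a ratio of 0.94 against buffer (0.887 to 0.995). Btrc, the adaptor for the proteasomal processing of Gli3 into its repressor form, was on the other side, with 2606, 2407 and 3236 reads and ratios of 1.24 (1.18 to 1.31) and 1.34 (1.27 to 1.41). In the cilium group, 5 of 6 genes had folds above 1 against buffer, a comparison in which only 43.2% of the 14885 genes had folds below 1. Ift172, a subunit of the intraflagellar transport complex, had 3444, 3185 and 4000 reads and a ratio of 1.16 against buffer (1.11 to 1.21). Fuz, a gene required for cilium formation, had the highest fold of the wider list against buffer, 1.36, from 192.92, 211.62 and 276.04 estimated reads.

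**Figure D4:**
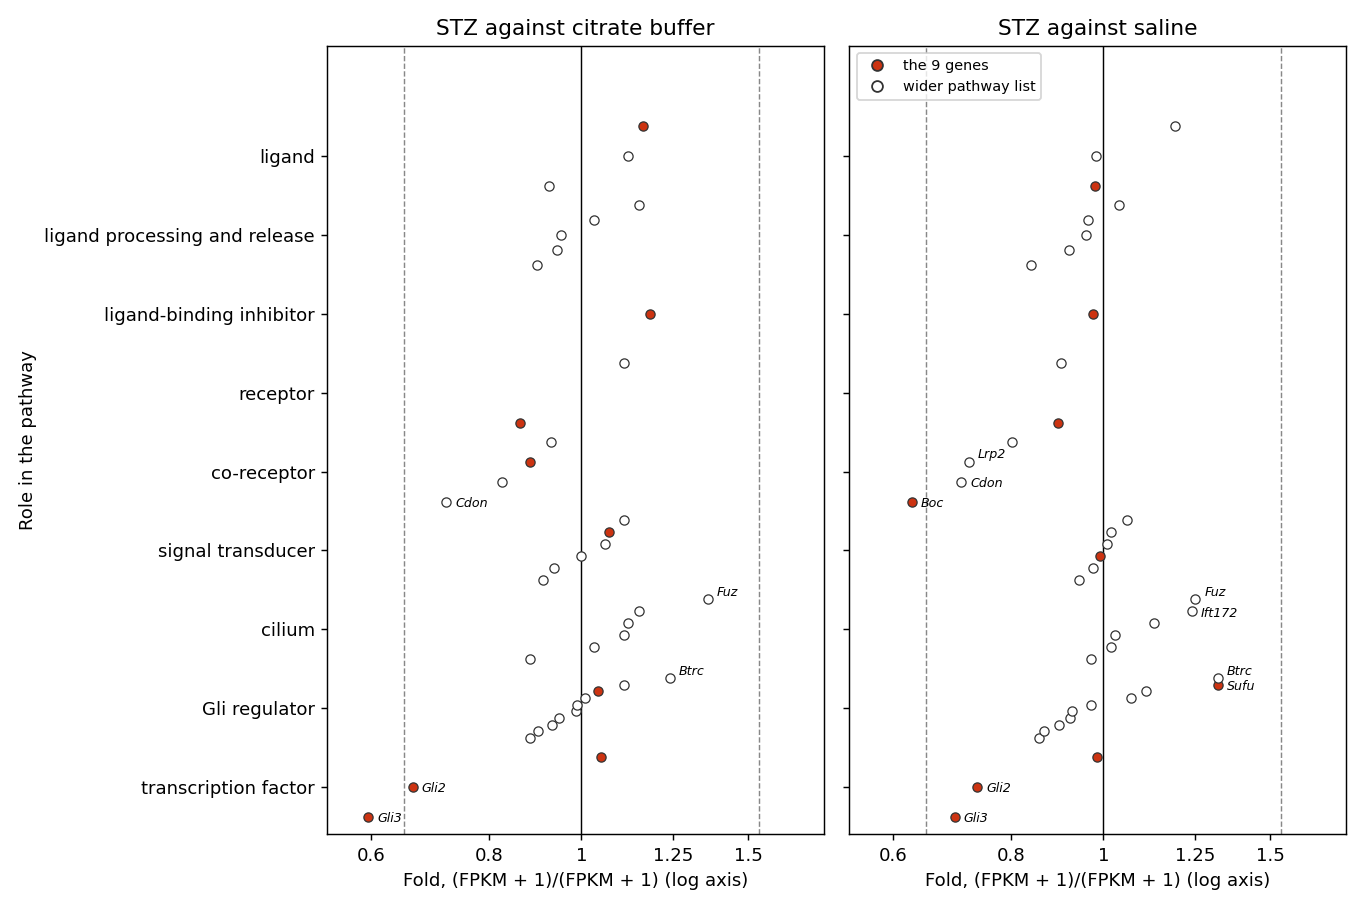
Folds (log axis) of the 9 genes (filled) and the wider pathway list (open) by role, for STZ against citrate buffer and STZ against saline, with the thresholds of 0.65 and 1.54 as dashed lines. Gli3 lies past the threshold against buffer at 0.596 and Boc against saline at 0.628, and the open points lie between the dashed lines in both panels.

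Genes known as Hedgehog targets in other tissues were listed as well, 12 with the readout genes, of which 11 were found. Of these, 1 was below 0.65 against buffer, the cyclin gene Ccnd1, with 30498, 30728 and 18626 reads and a ratio of 0.61 (0.599 to 0.621). The median log2 fold over the 10 targets that averaged 10 reads or more, Gli1, Ptch1 and Hhip among them, was -0.141 against buffer and -0.224 against saline. Mycn, a progenitor oncogene, had 2686, 2915 and 2024 reads and a ratio of 0.752 against buffer (0.71 to 0.797). Foxm1, a regulator of mitotic genes, had 2272, 2662 and 1908 reads and a ratio of 0.838 (0.788 to 0.891), and Hes1, also a Notch target, had 576, 545 and 443 and 0.768 (0.677 to 0.871). The lower targets thus included general proliferation and progenitor genes, while Gli1 and Hhip stayed within counting error. Foxf1 had 2 reads in each library, too few for a ratio, Bcl2 had 50, 42 and 47, and Sfrp1, which encodes a secreted Wnt inhibitor, had 123, 193 and 126.

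Marker lists of progenitors, glia and vessels were set beside Gli2 and Gli3, and their sums were lower in STZ than in both controls, by amounts that differed between lists and between genes of a list. Sums of photoreceptor (1850, 1730 and 2110 FPKM), amacrine and horizontal (382, 368 and 448) and bipolar markers (76.8, 76.2 and 99.8) were highest in STZ. In these lists 4 of 13, 3 of 12 and 0 of 7 genes that averaged 10 reads or more had folds below 1 against buffer. Summed over the 14 progenitor genes found of 15 listed, FPKM stood at 1450, 1450 and 1120. Of the 14, 13 had folds below 1 against buffer, beside 43.2% of the 14885 genes. Lhx2 and Ccnd1 were below 0.65 against both controls, as were 1.04% of all genes against buffer and 1.75% against saline. The 16 proliferation genes summed to 872, 874 and 777. By the read ratio 10 were lower than in buffer beyond counting error and 2 higher, beside 18.8% and 26.2% of the 14885 genes. The 2 higher genes were Ccnb1 at 1.31 (1.24 to 1.39) and Bub1 at 1.09 (1.02 to 1.16). The 8 astrocyte markers summed to 172, 172 and 153, a sum carried by Aldoc (103.66, 102.76 and 90.49 FPKM) and Cd44 (33.76, 33.78 and 33.08). Among the other astrocyte markers, the read ratio against buffer was 0.175 for Pax2 (0.0797 to 0.346) and 0.413 for Pdgfra (0.357 to 0.477). It was 0.499 for S100b (0.323 to 0.759), 0.632 for Gfap (0.53 to 0.752) and 0.963 for Aqp4 (0.546 to 1.69). Slc1a2 was higher than in buffer, at 1.2 (1.06 to 1.37). Endothelial markers, 12 in number, summed to 129, 139 and 90.2, mostly from Kdr (105.92, 117.43 and 80.18 FPKM), while the read ratios against buffer were 0.196 for Cldn5 (0.134 to 0.281), 0.235 for Cdh5 (0.15 to 0.357) and 0.247 for Tie1 (0.172 to 0.346). The higher endothelial sum in saline than in buffer was that of Kdr. Over the 12 genes the median log2 fold in saline against buffer was -0.019, and 6 had folds below 1, beside 44.4% of genes. The 9 pericyte markers summed to 17.7, 16.8 and 10.7, of which Rgs5 held 7.8, 6.39 and 3.17. By the read ratio 5 were lower than in buffer and 1, Tagln, was higher, at 2.06 (1.08 to 4.11) from 15, 31 and 31 reads. The 9 Müller glia markers summed to 1120, 1170 and 1090, a sum that includes Apoe, which rose (47.75, 72.15 and 163.99 FPKM). Of the 9, 6 had folds below 1 against buffer, beside 43.2% of genes. By the read ratio 4 were lower than in buffer beyond counting error, among them Sox9 at 0.616 (0.549 to 0.691). Higher by that criterion were 3, and over the 14885 genes 18.8% were lower and 26.2% higher. Of all these lists, none had a gene at 0 reads in any library. In saline against buffer the median log2 fold of the progenitor list was 0.036. Of its 14 genes, 3 had folds below 1, beside 44.4% of genes. The log2 fold of Gli3 in that comparison was -0.225. The part of these cells in the Gli2 and Gli3 levels was not tested.

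**Figure D5:**
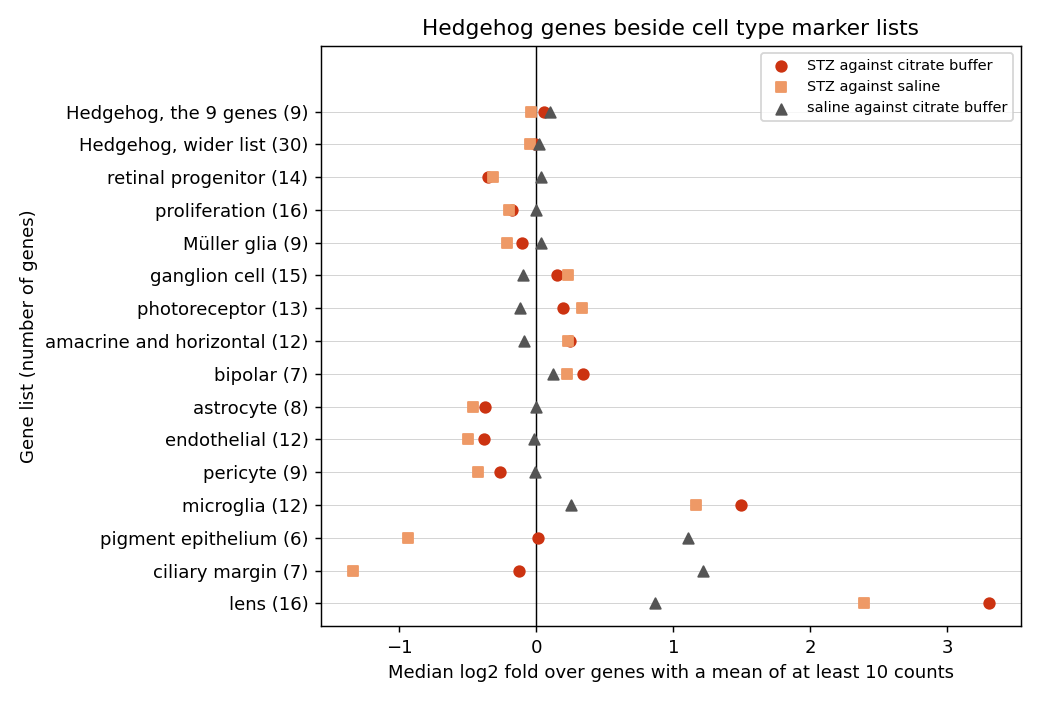
Median log2 fold of the Hedgehog genes and of the cell type marker lists in the 3 comparisons, over genes that averaged 10 counts or more (number in brackets). The 9 Hedgehog genes lie near 0 in all 3 comparisons, at 0.057, -0.036 and 0.097, the progenitor list is at -0.357 and -0.318 in STZ against buffer and saline, and the ciliary margin list is at 1.214 in saline against buffer.

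The markers of the labelled tissue were present. Crx, a photoreceptor transcription factor, had 12972, 11780 and 13849 reads and the progenitor and amacrine gene Pax6 had 12271, 12506 and 12605. RNA of microglia and of the lens also differed between the libraries. Microglia markers summed to 60.8, 78.6 and 197 FPKM, and lens genes to 27.3, 72.1 and 436, with Cryba2 and Crybb2 at 0 reads in buffer.

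Genes of the most like pattern were sought for the readout gene Gli1 and for the ligand Shh, as the smallest distance in the plane of the log2 read ratios of STZ and saline to buffer, over 3 libraries and among genes that averaged 100 reads or more. For Gli1 they were Enoph1 (1001, 1064 and 1061 reads), Mrps34 (369, 392 and 391) and Tmco1 (653, 692 and 695). With so few libraries many genes are alike, and 13.9% of 11792 genes lay within a distance of 0.1 of Gli1. For Shh they were Nck1 (376, 479 and 463 reads), Igfbp7 (446, 568 and 564) and Slc17a5 (236, 298 and 291), and 0.644% of 11793 genes lay within 0.1. The counting error of Shh itself is wider than that distance.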

How the data were processed

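Per the labels, total RNA of rat retinas was made into TruSeq libraries, and the authors sequenced them on a HiSeq, checked the reads with FastQC, trimmed their 5′ ends, mapped them with TopHat2 (up to 2 mismatches; build rn6 in the submitters' processing notes) and discarded reads at several locations. The annotation, the counter and its use of strand are not given in the sources used here. The authors deposited FPKM, TPM and an estimated count per gene and library. The deposited estimated counts are fractional for 12.9% to 13.2% of genes per library, but whole for all 9 members, and were rounded here. The table of the series and those of single libraries differ by 0.

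Folds, read ratios and intervals were computed with scipy 1.17.1, pandas 2.3.3 and numpy 2.4.6 under Python 3.11.15, and figures drawn with matplotlib 3.10.9. TMM factors are from edgeR 4.0.16 and size factors from DESeq2 1.42.0 (R 4.3.3), used for scaling only, since 1 library per condition allows no fit. The calculations were tested on simulated data. No molecular identifiers mark single RNA molecules here, and intervals cover counting error only. The members and gene lists were chosen with earlier results of these data known. The genes named are the members, the pathway and target lists, the leading or called genes of marker lists, and the 3 genes nearest in pattern to Gli1 and to Shh. Adrbk1, a former name of Grk2, and Nkx2-2, Fgf15, Opn5 and Cpamd8 were not matched, and 1 gene of the lists is counted but not reported here.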

Additional observations from a re-analysis of the deposited data

How the results depend on the processing

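In STZ against buffer, 1 of the 9 genes passed the fold thresholds, and 2 passed with a pseudocount of 0.1, TMM scaling, DESeq2 size factors, CPM or TPM (Gli2 joined Gli3), but 0 with thresholds of 2 and 0.5. Gli3 alone passed against the mean of both controls, an alternative chosen after seeing the data. In STZ against saline, the 1 gene (Boc) became 0 with thresholds of 2 and 0.5. In saline against buffer, 0 became 1 (Boc) with a pseudocount of 0.1 or CPM. In the wider list, 0 in STZ against saline became 2 with a pseudocount of 0.1 (Lrp2 lower and Dhh higher) and 1 with CPM or TPM (Lrp2), and 0 in saline against buffer became 1 with a pseudocount of 0.1 or CPM (Lrp2). The median log2 fold of the 9 genes kept its sign under the alternatives run, from 0.019 to 0.083 in STZ against buffer, -0.058 to -0.036 in STZ against saline and 0.075 to 0.102 in saline against buffer. Scaling by TMM lowers log2 values of STZ against buffer by a shift of -0.041. The Gli3 fold against buffer ranged from 0.561 to 0.596, and against the mean of both controls it was 0.643. Between the controls, Smo lost and Ptch1 gained an interval that excludes 1 under TMM or DESeq2 scaling. No paired analysis was possible because each condition has 1 library, and no replicate could be left out.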

Other observations

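For some pathway genes the FPKM and the reads gave different pictures. The kinase gene Gsk3b had a read ratio of 0.95 in STZ against buffer (0.921 to 0.978) and a fold of 0.882, and Prkacb, a catalytic subunit of protein kinase A, had 1.02 (0.981 to 1.06) and 0.931. Relative to the median gene, the FPKM per read was 0.927 times as high in STZ as in buffer for Gsk3b and 0.915 times for Prkacb. Among the 9 genes, Sufu had shifts of this size, at 0.932 in STZ against buffer and 0.903 in saline against buffer, while the other 8 were between 0.983 and 1.01 in the same comparisons. The transcript lengths behind each FPKM were not used here.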
